A study of Mus musculus with 2 samples.

Results

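The genes described here are 10 integrin subunits, the 8 alpha subunits Itga1, Itga2b, Itga4, Itga5, Itga6, Itga8, Itga9 and Itgav and the 2 beta subunits Itgb1 and Itgb3, of 31053 genes counted. They were chosen by name, and their UMIs (unique molecular identifiers, 1 per captured transcript) were read in barcodes with 2000 or more UMIs of which under 10% were mitochondrial. This gave 8253 barcodes in the WT library and 8165 in the KO library, of 1438264 and 1411683 barcodes with a UMI. All 10 genes had more than 100 UMIs in each library.

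The aorta-gonads-mesonephros (AGM) is the region of the mouse embryo in which the first haematopoietic stem cells arise. Whole AGMs of embryonic day 11 (E11) embryos, of a line kept on C57BL/6J, were dissociated with collagenase and their cells run on the 10x Chromium platform (3′ chemistry). One library was made from PDGFRB +/+ (WT) embryos and the other from PDGFRB -/- (KO) embryos, which carry the inactivated receptor gene in every cell from conception. No test between genotypes was possible, because cells taken from 1 library do not replicate a genotype, and genotype, library, embryo and sex cannot be told apart.

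Integrins are pairs of an alpha and a beta subunit that span the plasma membrane and tie the extracellular matrix, or a counter-receptor on another cell, to the actin cytoskeleton. The alpha subunit largely sets the ligand: collagen, laminin, the RGD motif of fibronectin and vitronectin, or VCAM1. The subunit beta 1 pairs with most of the alpha subunits listed here, beta 3 pairs with alpha IIb on megakaryocytes and platelets and with alpha V elsewhere. In the embryo they carry the adhesion of vascular cells to matrix, and CD41, the product of Itga2b, is among the earliest surface markers of blood formation.

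Pdgfrb, the targeted gene, was at 43.1 CPM (counts per 1000000 UMIs of the cells, with a 95% exact Poisson interval of 42.1 to 44.2) in WT and at 7.09 CPM (6.66 to 7.55) in KO. It had a UMI in 33.8% of WT and 9.81% of KO cells. Whether the counted part of the transcript lies in the deleted segment was not tested. The cells held medians of 13321 and 12391 UMIs. The libraries differed in sex, with Xist at 793 CPM in WT and 0.415 in KO. They also differed in Barx1, a transcription factor of foregut mesenchyme, at 35.1 CPM in WT and 0.724 in KO. For Barx1 the tissue taken at dissection and the genotype cannot be told apart. The libraries shared 20 barcodes. All intervals given here are 95% intervals of counting error alone, and leave out the variation between embryos.

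The members lie on 6 chromosomes of GRCm38 (GENCODE M21). Itga8 (chr2:12106632-12301922, minus strand), Itga6 (chr2:71745616-71858416, plus), Itga4 (chr2:79255426-79333123, plus) and Itgav (chr2:83724397-83806916, plus) share chromosome 2. Itga2b (chr11:102453297-102470122, minus) and Itgb3 (chr11:104608000-104670476, plus), whose products form a pair, share chromosome 11. Itgb1 lies at chr8:128685654-128733200 (plus), Itga9 at chr9:118606690-118901003 (plus), Itga1 at chr13:114953096-115101964 (minus) and Itga5 at chr15:103344286-103366763 (minus). Itga1 overlaps Pelo and Gm49395 on its own strand, so its counts are less certain than those of the others, none of which overlaps a counted gene on its strand.

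The 250 bases before the RefSeq start of Itga2b, a member with most of its UMIs in 1 class of cells, are set here beside those of Itgb1, which was found in every class. RefSeq windows (GRCm38.p6) were found for 8 of the 10 members, and Itga6 and Itgb3 had none. Capitals mark GGAAG or its reverse complement CTTCC, the core bound by ETS factors, of which many act in blood and endothelium. The windows are chr11:102469884-102470133 (minus strand) for Itga2b and chr8:128685404-128685653 (plus strand) for Itgb1.
Itga2b: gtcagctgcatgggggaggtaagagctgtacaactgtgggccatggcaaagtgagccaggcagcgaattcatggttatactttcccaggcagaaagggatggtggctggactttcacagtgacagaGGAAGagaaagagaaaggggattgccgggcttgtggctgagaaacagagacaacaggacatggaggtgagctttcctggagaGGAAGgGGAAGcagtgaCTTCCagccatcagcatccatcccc
Itgb1: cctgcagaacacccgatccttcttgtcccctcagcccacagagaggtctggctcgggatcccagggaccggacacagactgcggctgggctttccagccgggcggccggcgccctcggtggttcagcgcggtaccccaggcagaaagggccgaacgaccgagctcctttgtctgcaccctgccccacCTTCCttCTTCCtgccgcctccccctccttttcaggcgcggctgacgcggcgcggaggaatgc
The Itga2b window held 4 matches and the Itgb1 window 2, as did those of Itgav and Itga1, with 1 for Itga5 and 0 for Itga4, Itga8 and Itga9. The RefSeq starts of Itga2b and Itga9 lie downstream of their GENCODE starts. By the GENCODE positions above, most of the Itga2b window and all of the Itga9 window (chr9:118711442-118711691) are within the gene. A match stood in 64.1% of all 32851 windows of this length. GATAA, the core bound by GATA factors (both strands, no overlap with GGAAG), was in 0 of the 8 windows and in 22.6% of all windows. These matches are descriptions of letters and no evidence of binding.

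Cells were sorted into 14 classes by gates on marker genes that hold none of the members. A cell passed with 3 or more markers of a class and 5 or more marker UMIs per 10000, or 10 or more for the endothelial, sclerotome and mural gates. The endothelial gate also needed a UMI of Cdh5 or Pecam1, and the epithelial gate one of Epcam or Cdh1. The muscle gate needed a UMI of Myod1, Myog, Myf5 or Pax7, and the macrophage gate 5 or more UMIs of C1q genes per 10000. The gates held 20 WT and 17 KO megakaryocytes, 96 and 91 endothelial cells, 170 and 139 macrophages, 143 and 130 Schwann precursor and neural crest cells, 143 and 139 neuronal cells and sympathoblasts, and 741 and 222 erythroid cells. Smooth muscle and mural cells, called mural cells below, numbered 584 and 369. This short name covers the whole gate, and smooth muscle of vessels was not told apart from other smooth muscle. Actg2 was among its markers and leading genes in both libraries, and 186 of its WT cells had neither Pdgfrb nor Cspg4. Sclerotome cells numbered 1041 and 1707, skeletal muscle cells 220 and 536, and cells of other mesenchyme 2896 and 3356. Coelomic epithelium and gonadal ridge held 237 and 126 cells, the epithelial gate 53 and 53 and the splanchnic gate 967 and 410. The epithelial gate differed between the libraries, with Cldn7 and Shh among its leading genes in WT and Krt14 and Krt5 in KO. Its median level of other mesenchyme markers was 12.9 UMIs per 10000 in WT and 2.03 in KO. The gate for granulocytes, mast cells and blood progenitors held 32 and 32 cells, led by S100a8 and S100a9, which are granulocyte genes. A further 27 and 17 cells passed more than 1 gate outside the sclerotome, mural, splanchnic and other mesenchyme gates and were kept apart. In WT 1 more cell, of the endothelial and blood progenitor gates, was also kept apart, and 882 and 821 cells passed none. Some related gates had set rules that kept a cell in 1 of them. A cell that passed 1 gate outside the mesenchyme stayed in that class even where it also passed a mesenchymal gate. Median levels of other mesenchyme markers were 18.1 UMIs per 10000 in WT and 14.6 in KO coelomic cells, above the limit of 5. In the splanchnic gate of WT more of the 10 leading genes were markers of other mesenchyme than of its own, so its WT and KO values are printed side by side, with no ratio between the libraries, and its place in an order of classes is within 1 library. Orders of classes given below are over the 12 classes with 50 or more cells in both libraries, and the smaller megakaryocyte and granulocyte and progenitor gates are named apart from them.

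**Figure D1:**
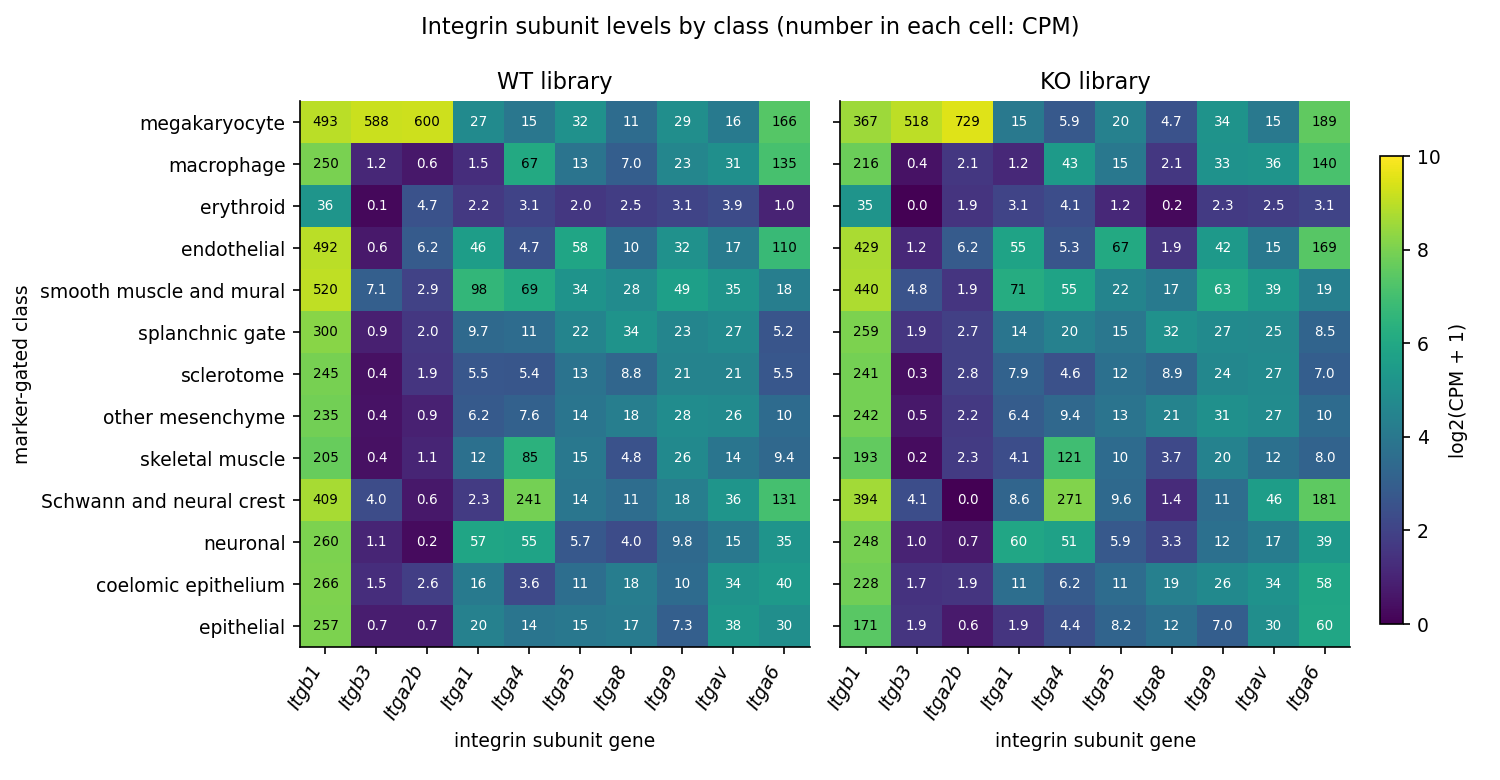
Level of each integrin subunit (columns) in 13 marker-gated classes (rows) of the WT and KO libraries, with the number in each field in CPM and the colour as log2(CPM + 1). Itga2b and Itgb3 stand out in the megakaryocyte row of both libraries (600 and 588 CPM in WT), and Itgb1 is present in every row.

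Itgb1, the common beta subunit, was the broadest member. It had a UMI in 73.5% of all WT cells and its level was highest in mural cells, at 520 CPM (507 to 533) in WT and 440 (426 to 454) in KO. Endothelial cells followed at 492 CPM in WT and 429 in KO, and their intervals overlapped those of mural cells. Schwann precursors came next at 409 and 394 CPM. In the WT library the splanchnic gate, at 300 CPM, was apart from the next, while coelomic (266 CPM), neuronal (260 CPM), epithelial (257 CPM), macrophage (250 CPM), sclerotome (245 CPM) and other mesenchymal cells (235 CPM) formed a run of neighbours with overlapping intervals. Skeletal muscle, at 205 CPM, and erythroid cells, at 36.0 CPM, were lowest of the 12 classes. Of the smaller gates, megakaryocytes held 493 CPM in WT and 367 in KO, and the granulocyte and progenitor gate 111 and 116. Haemoglobin genes took 56.0% of the UMIs of erythroid cells in WT and 62.3% in KO, and without them Itgb1 was at 81.8 and 93.6 CPM, still the lowest of the classes with 50 or more cells. Barcodes with at most 100 UMIs, which show the free RNA of each library, held Itgb1 at 193 and 217 CPM.

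The other beta subunit, Itgb3, was nearly restricted to megakaryocytes. It was at 588 CPM (534 to 645) there in WT and at 518 (470 to 568) in KO, and the 20 and 17 cells held 63.0% and 75.3% of all Itgb3 UMIs of the libraries. Outside megakaryocytes, of the classes with 50 or more cells in both libraries, mural cells were highest, at 7.11 CPM in WT and 4.82 in KO, with Schwann precursors at 4.02 and 4.13. The free RNA held 4.43 and 4.24 CPM, so of these 12 classes 1, the mural cells of WT (5.70 to 8.76), had an interval above the level of free RNA, and the KO mural interval (3.49 to 6.49) included it.

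Itga2b followed Itgb3. Alpha IIb, its product, pairs with beta 3 alone, as the fibrinogen receptor of platelets. It reached 600 CPM (546 to 658) in WT megakaryocytes and 729 (672 to 789) in KO megakaryocytes, with 57.2% and 63.6% of all Itga2b UMIs in these cells. Among the megakaryocytes, 19 of 20 in WT and 16 of 17 in KO had an Itga2b UMI, against 15 and 14 for Itgb3, and every cell with Itgb3 also had Itga2b (75.0% and 82.4% of cells had both).

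The level in megakaryocytes rested on a few deep cells. Itga2b UMIs per cell ran from 0 to 137 with a median of 5.5 in WT and from 0 to 244 with a median of 12 in KO, and the 5 highest cells held 79.7% and 77.0% of them. For Itgb3 the medians were 3.5 and 4 UMIs, the highest cells held 170 and 161, and the 5 highest held 90.7% and 81.7%. Total UMIs of these cells ran from 2025 to 133825 in WT and from 2982 to 186085 in KO. With each cell thinned to 2000 UMIs, both subunits were found in 35.0% and 35.3% of megakaryocytes.

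Itga2b outside megakaryocytes was low. In the granulocyte and progenitor gate it was at 9.49 CPM in WT and 14.7 in KO, in endothelial cells at 6.22 and 6.23, and in erythroid cells at 4.74 and 1.86. Without haemoglobin genes, erythroid cells held 10.8 CPM (8.31 to 13.7) in WT and 4.92 (2.25 to 9.35) in KO. Free RNA held 4.43 and 4.67 CPM, above the 1.56 and 2.35 CPM of mesenchymal cells. The endothelial intervals (3.80 to 9.61 in WT and 4.07 to 9.13 in KO) included the level of free RNA. Mesenchymal cells here are the sclerotome, mural, splanchnic and other mesenchyme gates together.

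Endothelial cells were split by a UMI of Kit, the receptor that marks the intra-aortic clusters in which blood stem cells arise, into 45 with and 51 without in WT and 48 and 43 in KO. Itga2b was at 7.07 CPM with Kit and 4.59 without in WT, and at 8.30 and 1.56 CPM in KO. In WT the log2 ratio was 0.62 (-0.91 to 2.44), an interval that ran across 0. In KO that is 24 against 2 UMIs, a log2 ratio of 2.41 (0.40 to 5.54), an interval that stays above 0 although it is wide. Cells with a Kit UMI were deeper, with medians of 45546 against 12623 UMIs in WT and 52393 against 15894 in KO, and the part of depth in the split was not tested. Itgav stood at a log2 ratio of Kit over no Kit of -1.22 (-2.05 to -0.41) in WT and of 0.47 (-0.39 to 1.42) in KO, where the interval ran across 0. Itga6 and Itgb1 differed less, with Itga6 at 115 and 101 CPM in WT and 173 and 161 in KO, and Itgb1 at 503 and 471 and at 435 and 416.

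**Figure D2:**
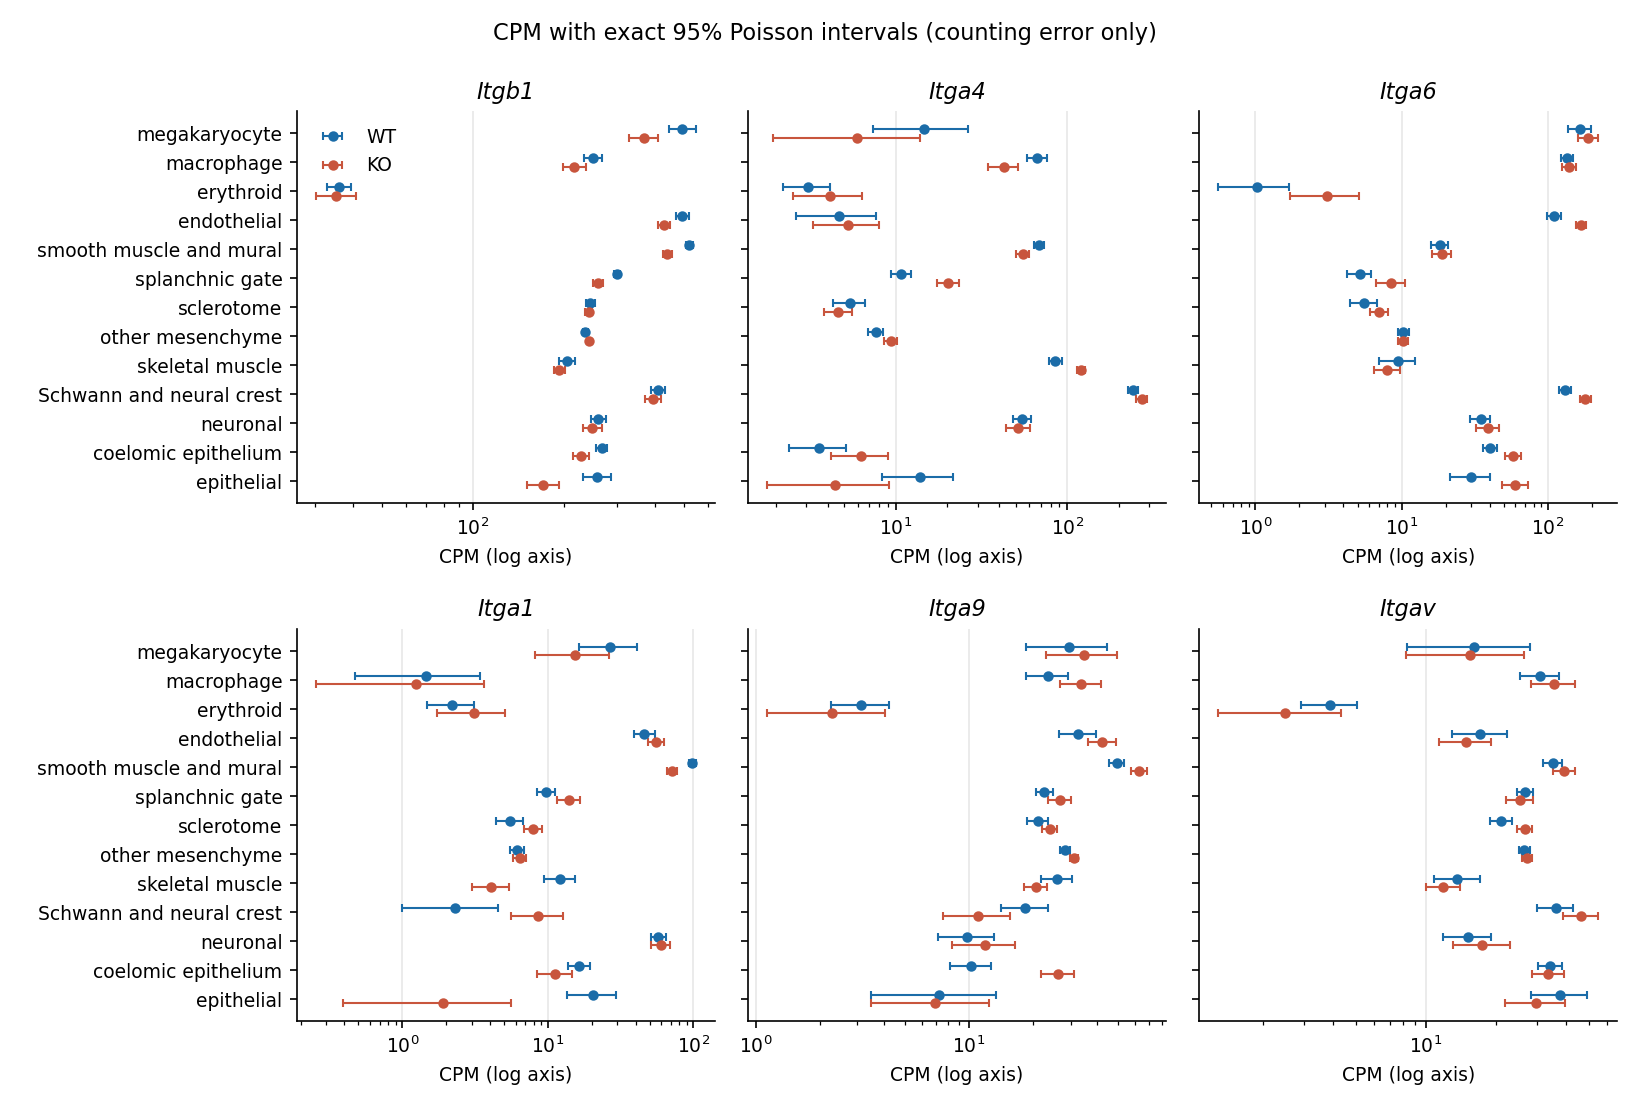
Levels of Itgb1, Itga4, Itga6, Itga1, Itga9 and Itgav (CPM, log axis with its own range in each panel) in 13 marker-gated classes, WT in blue and KO in red, with 95% exact Poisson intervals (counting error only). The order of classes within a gene is mostly shared by both libraries, with Itga4 highest in Schwann precursors and Itga1 and Itga9 in mural cells.

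Over the 12 classes with 50 or more cells in both libraries, the WT and KO levels of a member correlated with Pearson r from 0.69 (Itga2b) to 0.99 (Itgb1) on the log2(CPM + 1) scale. This is a description over 12 classes that share libraries and depth.

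Itga4, the alpha subunit of the VCAM1 and fibronectin receptor alpha 4 beta 1 of neural crest, muscle precursors and blood cells, was highest in Schwann precursors. Its level there was 241 CPM (225 to 258) in WT and 271 (253 to 291) in KO. Of the 12 classes skeletal muscle was second, at 85.1 CPM (77.7 to 93.1) and 121 (114 to 127), and both classes stood apart from their neighbours in the order in both libraries. The small granulocyte and progenitor gate held 93.7 and 212 CPM. Mural cells (68.8 and 55.0 CPM), macrophages (66.8 and 42.5 CPM) and neuronal cells (54.5 and 51.5 CPM) followed with overlapping intervals. In KO the 5 highest mural cells held 42.2% of the Itga4 UMIs of that gate. Endothelial cells, at 4.67 and 5.27 CPM, were among the lowest, below the free RNA at 14.5 and 24.6 CPM. The skeletal muscle gate, with 220 cells in WT and 536 in KO, held 13.2% of all Itga4 UMIs in WT and 34.7% in KO, and mural cells 23.5% and 11.8%.

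Itga6, the alpha subunit of the laminin receptors, was highest in 4 classes, 2 of them blood cells. In megakaryocytes it was at 166 CPM in WT and 189 in KO, in macrophages at 135 (123 to 148) and 140 (125 to 155), in Schwann precursors at 131 (119 to 144) and 181 (166 to 197), and in endothelial cells at 110 (99.0 to 122) and 169 (157 to 182). Among the 12 classes, Schwann precursors overlapped both macrophages and endothelial cells in WT, where the macrophage interval lay just above the endothelial one. In KO macrophages were below both Schwann precursors and endothelial cells. A second tier held coelomic epithelium (40.3 and 57.8 CPM), neuronal cells (34.7 and 38.9 CPM) and epithelial cells (29.7 and 60.03 CPM), and mural cells came next at 18.3 and 18.8 CPM.

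Itga1, the collagen receptor subunit typical of smooth muscle and capillaries, was highest in mural cells, at 98.0 CPM (92.6 to 104) in WT and 71.1 (65.7 to 76.9) in KO. Neuronal cells at 57.5 and 59.7 CPM and endothelial cells at 46.1 and 55.3 CPM were next, and did not differ from each other beyond their intervals in either library. The first place of mural cells was clear in WT alone, since in KO their interval overlapped that of neuronal cells (51.3 to 69.1), and the 5 highest KO mural cells held 29.9% of the UMIs. Macrophages were at 1.46 and 1.24 CPM. In the 12 classes the 3 highest were the same in both libraries.

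Itga5, the fibronectin receptor subunit needed in vessel formation, was highest in endothelial cells. It was at 57.6 CPM (49.6 to 66.5) there in WT and at 66.6 (59.0 to 74.9) in KO, and mural cells followed at 34.1 (30.9 to 37.5) and 21.8 (18.9 to 25.1). Endothelial cells stood apart from the rest in both libraries, mural cells only in WT. The next 8 classes of WT, from the splanchnic gate at 21.9 CPM to coelomic epithelium at 11.3, formed 1 run of overlapping neighbours.

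Itga8, which with beta 1 binds nephronectin and fibronectin and is known from kidney mesenchyme and smooth muscle, was highest in the splanchnic gate. That gate held 33.8 CPM in WT and 32.3 in KO, mural cells 27.6 (24.7 to 30.6) and 16.6 (14.0 to 19.5), other mesenchyme 18.3 and 20.95, and coelomic epithelium 17.9 and 19.4. Sclerotome, at 8.79 and 8.90 CPM, was lower than these. Of the 12 classes, those outside the mesenchyme all had WT values above KO values except coelomic epithelium. Schwann precursors held 10.9 and 1.38 CPM, endothelial cells 10.3 and 1.92, macrophages 7.001 and 2.06 and erythroid cells 2.48 and 0.206. In macrophages and in epithelial, skeletal muscle and neuronal cells the WT and KO intervals overlapped, and the KO macrophage value rested on 5 UMIs. Col1a1, a collagen of mesenchymal cells, was at 81.0 and 69.4 CPM in the same Schwann precursors, 64.4 and 14.1 in endothelial cells and 125 and 56.1 in macrophages, and the part of mesenchymal RNA in the Itga8 values was not tested.

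Itga9, whose product binds tenascin C and VCAM1 with beta 1, was highest in mural cells, at 49.2 CPM (45.4 to 53.3) in WT and 62.7 (57.6 to 68.1) in KO. Endothelial cells, at 32.4 and 41.9 CPM, headed a run of overlapping neighbours that in both libraries included macrophages, other mesenchyme, the splanchnic gate, sclerotome and skeletal muscle. Itgav, the RGD receptor subunit that also activates latent TGF-β, was spread over most classes. In WT it ran from 37.7 CPM (28.2 to 49.4) in epithelial cells over 35.2 in mural cells to 13.7 in skeletal muscle and 3.86 in erythroid cells, and in KO from 46.4 (38.9 to 54.9) in Schwann precursors to 11.8 and 2.48 in the same last classes. Without haemoglobin genes erythroid cells held 8.78 and 6.57 CPM of Itgav. Endothelial cells, at 17.1 and 14.9 CPM, were in the lower part of the order.

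Cells with an alpha subunit nearly always had Itgb1. Over the 7 alpha subunits that pair with it, 95.3% to 97.3% of WT cells with a UMI of the alpha subunit had an Itgb1 UMI, against 73.5% of all WT cells, and 94.8% to 97.6% of KO cells, against 77.8%. Cells with a UMI of a low gene tend to be deep cells. At a fixed 2000 UMIs per cell, the WT shares lay between 37.0% and 55.9%, against 31.9% of all cells. Of mural cells, 7.02% in WT and 5.15% in KO had both Itgav and Itgb3. Endothelial cells and Schwann precursors had a median of 3 of the 7 alpha partners of Itgb1 per cell in WT, and 4 and 3 in KO, against 0 in erythroid cells of both libraries. Thinned, the mean number was 0.671 and 0.738 in Schwann precursors, 0.427 and 0.615 in endothelial cells, and 0.502 and 0.417 in mural cells.

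WT mesenchymal cells were next gated at 1 UMI of Pdgfrb and of Cspg4, which encodes the pericyte antigen NG2. Double-positive cells (DP) numbered 401, single-positive cells 2097 for Pdgfrb (PDGFRβ-S) and 242 for Cspg4 (NG2-S), and 2748 cells had neither gene (DN). All 10 members had their highest value in DP cells, although for Itga2b the interval of DP over DN ran across 0 (0.16, -0.57 to 0.85). Genes in general leaned the same way, with 61.3% of the 11529 genes that had enough UMIs higher in DP than in DN cells. The share of all genes with their highest value in DP cells was not taken, so the 10 members cannot be set beside it. Itga1 was at 59.0 CPM in DP cells, at 14.7 and 13.7 in the single-positive PDGFRβ-S and NG2-S gates and at 7.70 in DN cells, and Itga4 at 41.9, 13.1, 12.7 and 8.90 CPM in the same order. Itgb1 was at 408, 285, 280 and 240 CPM, Itga9 at 47.3, 29.6, 22.5 and 20.02, and Itgb3 at 5.86, 0.645, 1.47 and 0.498. Itga2b was at 1.93 CPM in DP and 1.73 in DN cells.

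As log2 ratios of DP over DN, Itga1 stood at 2.94 (2.73 to 3.14), Itga4 at 2.24 (2.03 to 2.44), Itga6 at 1.42, Itga9 at 1.24, Itga5 at 1.06, Itga8 at 0.90, Itgav at 0.80 and Itgb1 at 0.76. All 8 members with 100 or more UMIs over both gates, which leaves out Itga2b and Itgb3, were past 1.5-fold, as were 15.1% of the 11529 genes so measured. Their median was 1.15 against 0.10 for all genes. The gates differ in makeup and depth: mural cells were 43.9% of DP and 6.77% of DN cells. Cspg4 is also among the markers of the mural gate, so DP cells pass that gate more readily. Within mural cells, where 176 DP cells had a median of 20655 UMIs and 186 DN cells one of 7442.5, 6 of 8 members were past 1.5-fold, against 15.4% of genes. Of the 6, Itga6 reached the minimum of 100 UMIs through DP cells alone, with 157 UMIs there and 3 in DN cells (4.16, 2.58 to 6.45). Its place in the count therefore rests on the gate where it is high. The others were Itga4 (2.30), Itga9 (1.97), Itga1 (1.80), Itga5 (1.03) and Itgav (0.97), with Itgb1 at 0.53 and Itga8 at 0.26. Within other mesenchyme 4 of 8 were past it, against 12.1% of genes, namely Itga8 (0.89), Itga5 (0.67), Itga1 (0.64) and Itga9 (0.64), while Itga4 stood at -0.39.

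**Figure D3:**
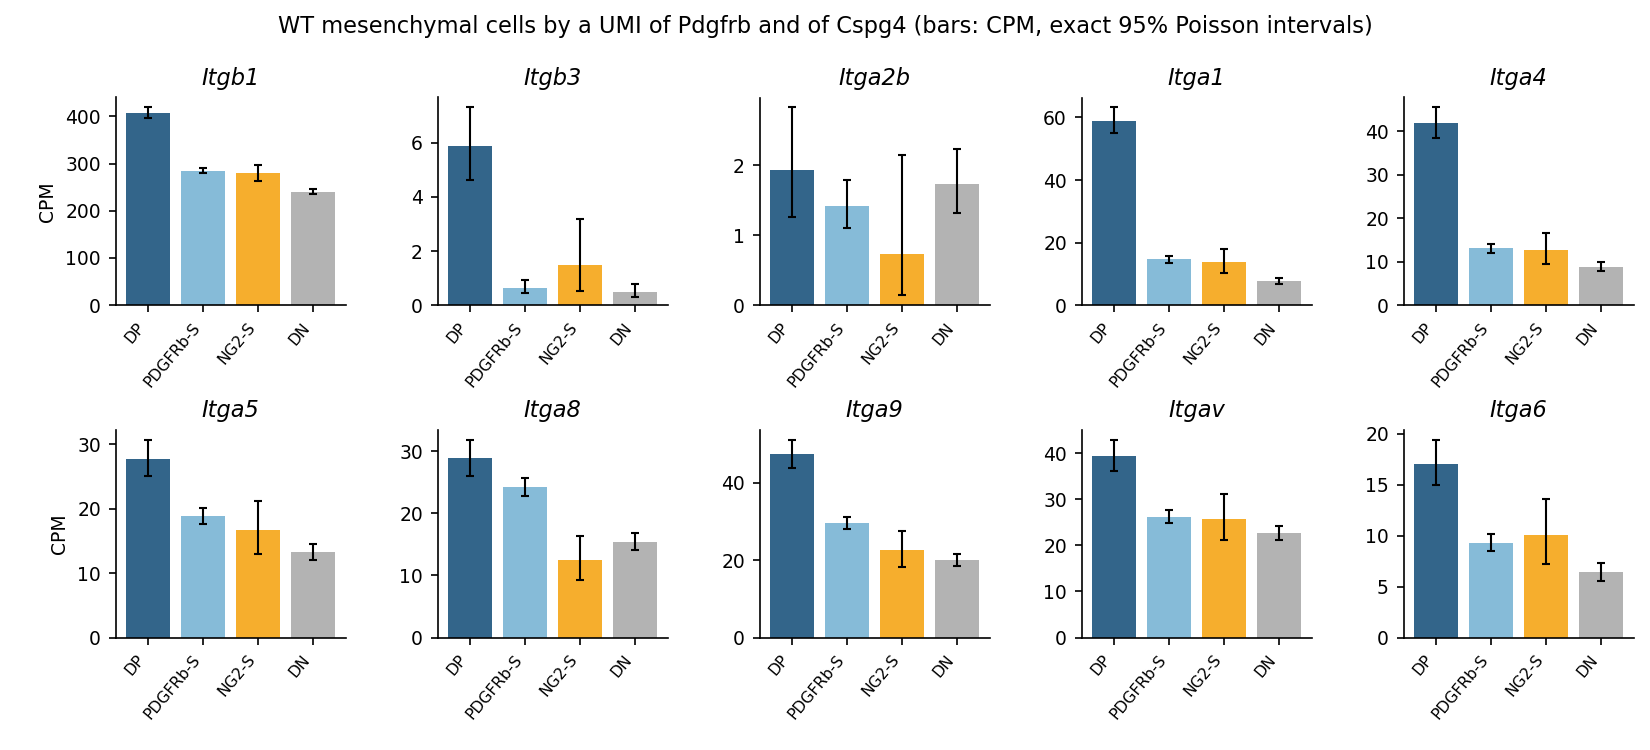
Level of each subunit (bars from 0, CPM, own range in each panel) in WT mesenchymal cells gated at 1 UMI of Pdgfrb and Cspg4, with 95% exact Poisson intervals (counting error only). DP cells are above DN cells for Itga1 (59.0 against 7.70 CPM) and 8 other subunits, while the Itga2b intervals overlap.

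Over all cells, KO over WT ratios of the subunits lay on both sides of 0. The log2 ratio of KO over WT was 0.38 for Itga2b, 0.28 for Itga4, 0.26 for Itga9, 0.24 for Itga6, 0.08 for Itgav, -0.07 for Itgb1, -0.19 for Itgb3, -0.20 for Itga5, -0.21 for Itga8 and -0.34 for Itga1. Of the 10 members, 0 were past 1.5-fold (log2 0.58), against 10.8% of 14988 genes with 100 or more UMIs. Their median was 0.01 beside 0.06 for all genes. These sums pool classes whose cell numbers differ. Skeletal muscle, with 220 and 536 cells, held 480 and 1447 UMIs of Itga4, which stood at -0.24 (-0.35 to -0.14) in mesenchymal cells. For Itga2b, 5 cells held 47.3% of the UMIs in WT and 49.0% in KO. With under 5% mitochondrial UMIs per cell, which kept 3600 WT and 2915 KO cells, 4 of the 10 were past 1.5-fold (Itga2b, Itga4, Itga6 and Itgb3). That cut kept 97.0% and 98.2% of erythroid cells, 30.9% and 25.0% of mesenchymal cells and 8 megakaryocytes in each library. The share of all genes past 1.5-fold was not taken there, so the 4 cannot be set beside it. At the 10% limit 1 of 10 was past 1.5-fold in mesenchymal cells, against 8.92% of genes. This was Itga2b at 0.59 (0.29 to 0.89), whose levels of 1.56 and 2.35 CPM are below the free RNA. Itga1 (-0.46), Itgb3 (-0.42) and Itga5 (-0.38) were lowest there, and the median was -0.17 beside 0.02. This sum pools gates whose cell numbers differ between the libraries, and holds the splanchnic gate, which is not compared on its own. For Itga1 the ratio was -0.46 in mural cells, 0.53 (0.16 to 0.91) in sclerotome and 0.06 (-0.17 to 0.28) in other mesenchyme. The part of the mix of gates was not tested.

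Mural cells held the lower values. In mural cells Itga8 had 341 UMIs in WT and 148 in KO, and stood at -0.73 (-1.02 to -0.45), and Itga5 had 422 and 195 UMIs and stood at -0.64 (-0.90 to -0.39). These were 2 of 9 members past 1.5-fold, against 8.49% of genes. Itgb3 was at -0.56, Itga1 at -0.46 (-0.60 to -0.32), Itga4 at -0.32 and Itgb1 at -0.24 (-0.30 to -0.18). Higher in KO were Itga9 at 0.35 (0.18 to 0.52), Itgav at 0.16 and Itga6 at 0.04. Other genes of mural cells also differed between the libraries, in both directions. The contractile genes Acta2 (5007 and 3594 CPM) and Tagln (2558 and 1978 CPM) were lower in KO, and Eln, which encodes elastin, was higher (120 and 244 CPM). Their part in the result was not tested. In bulk sums over a gate, fewer cells of a subtype and less RNA per cell cannot be told apart.

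In endothelial cells Itga6, the laminin receptor subunit, had 354 UMIs in WT and 706 in KO, a ratio of 0.62 (0.43 to 0.81), and a UMI was found in 71.9% and 90.1% of the cells, or 13.5% and 28.6% after thinning. It was the 1 of 6 members past 1.5-fold, against 6.16% of genes. It was no longer counted with under 5% mitochondrial UMIs, where Itga1 and Itga5 were, on 33 WT and 27 KO cells. Nor was it without the 5% deepest barcodes, where the count was 0. The count was 0 after thinning too, but thinning left few Itga6 UMIs to reach the minimum for a counted gene. That count therefore cannot show whether the Itga6 difference remained, and the thinned shares of cells, 13.5% and 28.6%, still differed. Itga9 stood at 0.37 (0.015 to 0.74) and Itgb1 at -0.20 (-0.30 to -0.099), while the intervals of Itga1 (0.26) and Itga5 (0.21) ran across 0. Values of Itga6 in the KO library were also higher in Schwann precursors (0.47, 0.28 to 0.65), coelomic epithelium (0.52, 0.28 to 0.76) and epithelial cells (1.01, 0.47 to 1.58), but in epithelial cells the 5 highest KO cells held 66.3% of the UMIs.

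In the other classes, leaving aside the splanchnic gate, 0 to 2 members passed 1.5-fold. In sclerotome 0 of 9 did, against 6.77% of genes, and in other mesenchyme 1 of 9 did, against 6.79%, which was Itga2b, with 45 UMIs in WT and 124 in KO, nearly all at 1 UMI per cell. In skeletal muscle 1 of 7 did, against 5.76%. This was Itga1 at -1.56 (-2.12 to -1.01), for which 5 WT cells held 80.9% of 68 UMIs, while Itga4, the subunit of muscle precursors, stood at 0.50 (0.35 to 0.65). Among macrophages 1 of 5 did, against 6.24%, with Itga4 at -0.65 (-1.002 to -0.31). In coelomic epithelium 1 of 7 did, against 8.67%, with Itga9 at 1.36 (0.94 to 1.78), and the 5 highest KO cells held 58.7% of its UMIs. In epithelial cells 2 of 2 did, against 10.7%, namely Itga6 and, at -0.59 (-0.83 to -0.36), Itgb1. The makeup of the epithelial gate differed between the libraries, as given above, and its part in these ratios was not tested. In the granulocyte and progenitor gate 1 of 2 did, against 9.88%, with Itga4 at 1.18 (0.79 to 1.58), where the 5 highest cells held 54.4% and 57.4% of the UMIs. The interval of Itgb1 lay below 0 in macrophages, megakaryocytes, endothelial, epithelial, coelomic and mural cells and above 0 in other mesenchyme (0.043), and ran across 0 in erythroid, Schwann precursor, neuronal, skeletal muscle, sclerotome and granulocyte and progenitor cells.

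**Figure D4:**
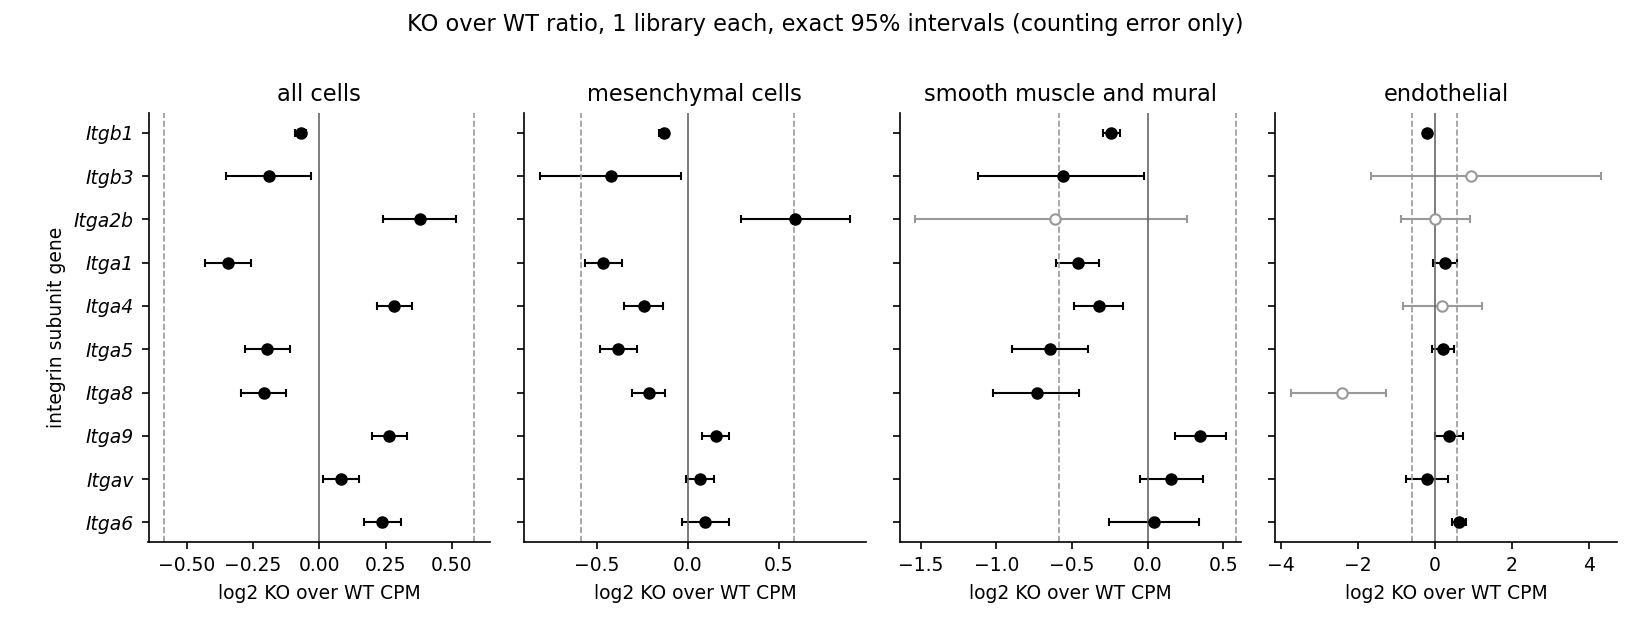
Log2 ratio of KO over WT of each subunit in all, mesenchymal, mural and endothelial cells (own range in each panel), with 95% exact intervals (counting error only), dashed lines at 1.5-fold and open grey symbols for subunits with under 100 UMIs over both libraries. Itga6 lies just past the upper line in endothelial cells (0.62), and Itga5 (-0.64) and Itga8 (-0.73) lie past the lower line in mural cells.

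The other genes of integrin adhesion were read from fixed lists. Of 17 other integrin subunits, 12 had 100 or more UMIs over all cells, of which 1 was past 1.5-fold higher in KO and 0 lower, with a median log2 ratio of 0.05, beside 10.8% of all genes past it in either direction. The highest were Itga11 (0.78), a collagen receptor subunit of mesenchyme, Itga2 (0.43) and Itgae (0.33), and the lowest Itga3 (-0.57), Itga10 (-0.37) and Itgam (-0.30). Of 24 genes of the integrin-linked machinery inside the cell, all had 100 UMIs and 0 were past 1.5-fold, against the same 10.8%, with a median of -0.02. Tln2, a talin, was at 0.45, Fermt2, a kindlin, at 0.27 and Ptk2, the focal adhesion kinase, at 0.23, while Lims2 (-0.48), Ilk (-0.42), whose products bind each other, and Fermt3 (-0.39), the kindlin of blood cells, were lowest.

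Of 30 ligands, 26 had 100 or more UMIs over all cells, 3 were past 1.5-fold higher in KO and 2 lower, against 10.8% of all genes, with a median of 0.10. Egfl6 (1.25), Spp1 (0.84), which encodes osteopontin, and Icam1 (0.62) were highest. Postn (-1.05), which encodes periostin, Col1a1 (-0.89) and the laminin chain Lama1 (-0.50) were lowest. Postn and Col1a1 were among the leading genes of the WT splanchnic gate, which held 967 cells in WT and 410 in KO. The part of this difference in cell numbers in the Postn and Col1a1 values was not tested. In mesenchymal cells the ligands had 2 past it higher and 2 lower of 23, with Postn at -1.28, and the machinery inside the cell had 0 higher and 1 lower (Lims2, -0.71) of 21, against 8.92% of all genes. In endothelial cells 1 of 14 ligands was past it higher, Icam1 at 0.91, and 5 lower, against 6.16% of all genes. Among the 5 were Fn1 (-0.74), which encodes fibronectin, Vwf (-0.98) and Col1a1 (-2.19). The part of mesenchymal RNA in the endothelial Col1a1 value was not tested.

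Over the same 12 classes, genes whose levels followed a member most closely were sought among 13436 genes, with the lower of the WT and KO r as the measure. Itgb1 was closest to Rock2 (0.976), Slmap and Bicd2, Itga5 to Pgm1 (0.930), Rras and Tpm4, Itgav to Os9 (0.927), Tm7sf3 and Erp44, and Itga8 to Lhfp (0.921), Kcp and Calml4. Itga6 was closest to Dusp6 (0.908), Map3k11 and Frmd8, Itga9 to Rsu1 (0.896), Fhl3 and Ccm2, and Itga4 to Zeb2 (0.829), Celf2 and Vgll3. Itga1 came closest to Bace2 (0.826), Gm13889 and Tspan2, Itgb3 to Lims2 (0.792), Mmp17 and Nnmt, and Itga2b, near the level of free RNA in these classes, to Cdc42ep3 (0.749), Lbr and Hspa12b. Among the members, Itga5 and Itgb1 (0.85 in WT and 0.82 in KO), Itga5 and Itga9 (0.82 and 0.85) and Itgav and Itgb1 (0.80 and 0.79) were the most alike pairs.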

How the data were processed

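Cells of whole E11 AGMs from WT and KO embryos were run on the 10x Chromium platform (3′ chemistry), with 1 library per genotype. The authors aligned the reads with Cell Ranger 3.1.0 to mm10/GRCm38 and deposited unfiltered UMI counts per gene and barcode, whole numbers with no normalization and no calling of cells. All columns of the files were used (0 were not).

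Barcodes with 2000 or more UMIs and under 10% mitochondrial UMIs were kept, 150175081 UMIs in WT and 142222182 in KO. Cells were put into 14 classes by marker gates. Cells within 1.5 times the marker level of a gate's limit were most numerous for 2 large gates. These were sclerotome (275 of 1041 and 384 of 1707) and the splanchnic gate (207 of 967 and 178 of 410). Of the smaller coelomic gate, 79 of 237 and 36 of 126 cells were that near. No doublet caller was run, and the deepest barcodes were left out in an alternative. The endothelial and muscle gates were tightened after integrin values had been seen, and the looser gates are an added alternative, chosen after seeing the data. The members and lists were chosen with earlier results of these data known.

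UMIs were summed over a class and given as CPM with exact Poisson intervals, shares with exact binomial intervals and ratios with exact conditional intervals, all at 95% and for counting error only. A ratio was counted as past 1.5-fold among genes with 100 or more UMIs over both libraries. No test was made, since each genotype had 1 library. All 10 members are named. The 3 genes most alike were taken per member by the lower of the WT and KO Pearson r of log2(CPM + 1) over classes of 50 or more cells, without marker genes, and of each list the 3 highest and 3 lowest ratios over all cells. List genes in other classes were named after their values were seen. Shares were also taken with each cell thinned to 2000 UMIs, which left out no cell. Scripts were tested on simulated data, and used Python 3.11.15, numpy 2.4.6, scipy 1.17.1, pandas 2.3.3, matplotlib 3.10.9 and, for TMM factors, edgeR 4.0.16 in R 4.3.3. Positions came from GENCODE M21 and sequences from RefSeq, both on GRCm38.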

Additional observations from a re-analysis of the deposited data

Results flagged for a closer look

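Barcodes with 500 or more but under 2000 UMIs, 9943 in WT and 9800 in KO, were outside every comparison, yet all 10 members in WT and all 10 in KO were above 3 UMIs in them. Itga2b was at 4.50 CPM there in WT and 6.81 in KO, beside 5.23 and 6.79 CPM in the cells, log2 ratios of -0.22 and 0.00, while for the other members the ratio ran from -0.52 to -2.89. Of these barcodes, 15 in WT and 20 in KO passed the megakaryocyte gate. The KO over WT log2 ratio of Itga4 was -0.65 among macrophages and 1.18 in the granulocyte and progenitor gate, in opposite directions, and the difference between these classes was not tested.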

How the results depend on the processing

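No paired analysis was possible because there was 1 library per genotype and the labels carry no replicate numbers. The number of members past 1.5-fold between the libraries was 0 in all cells, 1 in mesenchymal cells and 1 in endothelial cells. Shares of all genes past 1.5-fold were not taken under the alternatives, so the counts that follow have none beside them. With under 5% mitochondrial UMIs, which kept 3600 WT and 2915 KO cells, the count was 4 in all cells (Itga2b, Itga4, Itga6 and Itgb3). It was 0 in mesenchymal cells and 2 in the 33 WT and 27 KO endothelial cells left (Itga1 and Itga5). There the median of all genes was 0.17, against 0.06, and 4 values turned direction, Itga1 to 0.22, Itgb1 to 0.065, Itgb3 to 1.23 and Itga2b in endothelial over other WT cells to -0.056. Without the 5% deepest barcodes Itgb3 turned to 0.17, and the mesenchymal and endothelial counts were 0 and 0. The mesenchymal count was 0 with the mean of per-cell CPM, with gates at 1.5 times the marker level, with TMM scaling and after thinning. The endothelial count after thinning was 0 too. Thinning left fewer UMIs to pass the minimum, so the counts after thinning cannot show whether a ratio changed. Without KO cells with a Pdgfrb UMI the mesenchymal count was 3 (Itga1, Itga2b and Itga4), and over all cells the count was 1 (Itga1). Such cells were removed from KO alone. In WT mesenchymal cells Itga1 and Itga4 were higher with Pdgfrb than without (DP over DN 2.94 and 2.24). For these 2 members the setting therefore cannot be read as a difference between genotypes. Without the minimum of 100 UMIs the endothelial count was 3 (Itga6, Itga8 and Itgb3). With the looser gates, added after seeing the data, both counts were 1. After thinning Itga2b had 0 UMIs in WT endothelial cells, so its ratio has no value there. Of the log2 ratios of members under all alternatives, 75 between libraries and 76 of the highest class over other cells moved by less than their counting interval, and 31 and 32 moved by more. The cause of these changes was not tested.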
